A study of Homo sapiens with 20 samples.

Results

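The genes described here are those whose transcripts stood lower in U2-OS cells 1.5 h after ionizing radiation (IR) than in untreated cells. They were selected by their measured values. Read counts were divided by the library total and scaled to CPM (counts per 1e6 reads on genes), and x is the log2 of the median CPM over the 5 libraries of a group plus 0.5. A gene entered the group when its median in untreated cells was at least 2 CPM and x at 1.5 h minus x in untreated cells was -0.6 or less. This gave 45 of the 12709 genes that reached 2 CPM in untreated cells, out of 20314 genes counted. On the same scale 151 of these 12709 genes were 0.6 or more higher at 1.5 h. Because the 1.5 h and the untreated libraries chose these genes, their difference is given as a description and was not tested. Cells 7 days post-IR and non-irradiated cells with a knockdown of NFKBIA took no part in the choice. Their contrast is the only one between 2 groups outside the choice, although the fit behind it drew its scaling and spread from all 20 libraries.

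U2-OS is a human osteosarcoma line, grown here in DMEM with 10% FCS. RNA was sequenced from 4 groups of 5 libraries: untreated cells, cells 1.5 h (labelled 90 minutes) and 7 days after a dose of 20 Gy, and non-irradiated cells carrying an shRNA against NFKBIA, the gene of the NF-κB inhibitor IκBα. Irradiation was timed so that all cells were collected together. The methods describe doxycycline-inducible shRNA lines and controls with a scrambled shRNA on doxycycline, but nothing in the labels of untreated cells tells of a vector or doxycycline, so whether these 2 groups differ in more than the knockdown is not given. The paper calls its quintuplicates biological replicates without saying whether they were separate cultures, so that p values measure the spread between these samples.

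Double-strand breaks made by IR activate the kinases ATM and CHK2 and the transcription factor p53, and cells before mitosis halt in G2. Many genes of mitosis are transcribed mainly in G2 from promoters that carry CCAAT boxes, read by NF-Y, and a cell cycle genes homology region, read by the MuvB core of the DREAM complex, a repressor in resting and arrested cells. How soon the level of a transcript can fall after its synthesis stops depends on how quickly that transcript is degraded, and transcripts of many regulators of signalling and transcription are short-lived.

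Sorted by the known roles of their products, which was done after the genes had been seen, 14 of the 45 genes act in cell division, 7 in signalling between and within cells, 11 in transcription, 4 at the cell surface or in matrix, 5 in stress responses and cell death, and 4 elsewhere. The promoters of the division genes are shown because the genes share letters there that the selection did not use. RefSeq gave a start site for 33 of the 45 genes (GRCh38.p14), and the 250 bases before it were searched on both strands. With 73.3% of the genes matched, under the 80% needed for a check of a property over the list, a check over all 45 genes is void and the counts describe the matched promoters. The same holds for the division genes, of which 11 of 14 (78.6%) were matched. The cell cycle genes homology region, TTTGAA, was present before 7 of these 11 genes, 5 of the 22 other matched genes and 8.85% of the 9983 matched genes with at least 2 CPM in untreated cells. The CCAAT box stood before 10 of the 11 division genes, 9 of the 22 others (40.9%) and 34.1% of the 9983. Both motifs occurred together in 7 of the 11, in 2 of the 22 (9.09%) and in 3.45% of the 9983. Over all 35114 RefSeq promoters of the same length the shares were 13.3% for TTTGAA, 32.0% for CCAAT and 4.69% for both. The 7 promoters with both are printed 5′ to 3′ along the strand of the gene, in lower case with every TTTGAA and CCAAT, on either strand, in capitals; in CDCA8 the motifs overlap. 
PIF1: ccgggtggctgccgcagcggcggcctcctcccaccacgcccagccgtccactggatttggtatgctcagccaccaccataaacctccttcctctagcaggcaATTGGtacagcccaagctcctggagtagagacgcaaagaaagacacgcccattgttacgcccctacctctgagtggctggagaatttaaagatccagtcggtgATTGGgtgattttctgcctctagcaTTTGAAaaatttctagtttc
BORA: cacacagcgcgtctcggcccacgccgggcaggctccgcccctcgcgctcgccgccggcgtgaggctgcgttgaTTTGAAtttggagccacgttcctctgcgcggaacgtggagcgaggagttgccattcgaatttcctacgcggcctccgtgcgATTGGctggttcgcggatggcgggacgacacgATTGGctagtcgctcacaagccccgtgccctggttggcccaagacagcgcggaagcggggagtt
CCNF: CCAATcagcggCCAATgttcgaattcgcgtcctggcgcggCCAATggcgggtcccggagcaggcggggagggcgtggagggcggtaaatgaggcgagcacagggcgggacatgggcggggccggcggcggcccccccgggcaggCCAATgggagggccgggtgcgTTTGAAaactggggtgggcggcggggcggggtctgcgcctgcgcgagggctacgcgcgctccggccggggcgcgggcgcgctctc
HJURP: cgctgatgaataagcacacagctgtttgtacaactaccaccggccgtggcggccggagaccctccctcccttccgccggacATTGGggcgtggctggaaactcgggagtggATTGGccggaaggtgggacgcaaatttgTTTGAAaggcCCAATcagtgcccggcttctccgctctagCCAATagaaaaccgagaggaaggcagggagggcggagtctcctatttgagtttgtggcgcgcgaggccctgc
PLK1: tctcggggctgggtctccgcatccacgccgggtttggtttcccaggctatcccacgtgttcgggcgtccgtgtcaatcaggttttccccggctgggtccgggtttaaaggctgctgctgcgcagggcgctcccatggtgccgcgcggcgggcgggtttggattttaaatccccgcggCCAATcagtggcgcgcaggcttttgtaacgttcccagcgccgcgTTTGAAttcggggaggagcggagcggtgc
CDCA8: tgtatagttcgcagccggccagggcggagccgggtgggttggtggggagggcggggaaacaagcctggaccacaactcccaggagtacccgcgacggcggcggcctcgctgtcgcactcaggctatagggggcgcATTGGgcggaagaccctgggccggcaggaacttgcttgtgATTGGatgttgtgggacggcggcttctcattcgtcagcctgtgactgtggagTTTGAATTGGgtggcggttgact
CENPA: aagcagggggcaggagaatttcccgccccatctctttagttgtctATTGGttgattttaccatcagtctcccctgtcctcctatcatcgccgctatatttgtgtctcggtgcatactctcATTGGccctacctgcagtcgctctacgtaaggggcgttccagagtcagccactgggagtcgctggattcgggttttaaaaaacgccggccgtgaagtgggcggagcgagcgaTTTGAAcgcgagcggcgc
They lie at chr15:64825648-64825897 (minus strand) for PIF1, chr13:72727673-72727922 (plus strand) for BORA, chr16:2429197-2429446 (plus strand) for CCNF, chr2:233854536-233854785 (minus strand) for HJURP, chr16:23678639-23678888 (plus strand) for PLK1, chr1:37692266-37692515 (plus strand) for CDCA8 and chr2:26785806-26786055 (plus strand) for CENPA. All 7 are stretches upstream of the transcription start. The motif TTTGAA began 18 bases before the start in CENPA, 20 in PIF1, 23 in CDCA8, 29 in PLK1, 85 in CCNF, 111 in HJURP and 177 in BORA. A match describes the letters only and is no evidence that a factor binds.

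Of the other motifs searched in these 33 windows, the GC box GGGCGG occurred in 22 (66.7%), against 66.2% of the 9983 promoters of genes of at least 2 CPM and 42.6% of all promoters. The E2F site TTTCCCGC was found in 1 window (CENPA) against 2.34% and 1.39%, the E-box CACGTG in 2 (BMP4 and PLK1) against 8.61% and 6.35%, and the TATA box TATAAA in 2 (PPP1R10 and HSPA1L) against 5.58% and 10.7%. The cAMP response element TGACGTCA was in 0 of the 33 windows and in 2.87% of the 9983. Outside cell division, TTTGAA preceded BMP4, MYCN, HMX2, ZNF503 and TGIF1. The windows of the 33 genes had a median GC content of 64.4%, beside 64.8% for the 9983.

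The untreated libraries held 22535659 to 40390961 reads on genes, those at 1.5 h 34345867 to 39546228, those at 7 days 27547705 to 34307447 and those of the knockdown 26693224 to 33461262. NFKBIA itself was measured at 28.2, 23.5, 27.2, 34.3 and 39.1 CPM in the untreated libraries and at 13.2, 11.4, 12.4, 12.2 and 12.7 CPM in the knockdown. All 5 knockdown libraries lay below all untreated ones, as their label requires. At 1.5 h NFKBIA stood at 87.9, 76.0, 79.8, 78.3 and 86.1 CPM, above every untreated library, and at 7 days at 30.4, 28.7, 32.8, 32.4 and 31.0 CPM, within their range.

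Of markers of the osteoblast lineage and mesenchyme, untreated cells carried VIM at 2255 CPM (median of 5 libraries), SPARC at 2092, COL1A1 at 1875 and RUNX2 at 95.02. TWIST1 was at 0, SP7 at 0.0248 and COL1A2 at 0.396 CPM, so that some lineage markers were low and TWIST1 was not detected at the median. Single markers went different ways between groups: at 7 days SPP1 stood at 72.5 CPM (10.4 untreated), ALPL at 44.03 (20.7), SPARC at 1248 and COL1A1 at 1516, and in the knockdown ALPL was at 7.08 and COL1A1 at 613. Among 5 epithelial markers, CLDN4 was the most abundant at 13.1 CPM and EPCAM stood at 3.02. All 5 were called lower at 7 days than untreated (median log2 fold change -0.86) and than at 1.5 h (-1.06), and in the knockdown 3 were called lower and 1 higher than untreated, with CLDN4 at 27.04 CPM. At 7 days against the knockdown 2 of these markers were called lower and 3 higher (median 0.57). The 5 leukocyte markers together came to 1.10 CPM, 3 endothelial markers to 1.23 and 4 erythroid markers to 0. Their part in the differences described here was not tested.

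The untreated libraries were less alike than those of the other groups. Over genes of at least 2 CPM, untreated replicate 5 deviated from its group median by 0.37 on average on the log2 scale and replicate 4 by 0.24, and the next was untreated replicate 2 with 0.14. The labels give the sequencing lane. Untreated replicates 1 to 4 filled lane 2, replicate 5 shared lane 3 with 1.5 h replicates 1 to 3, lane 4 held 1.5 h replicates 4 and 5 with 7 days replicates 1 and 2, lane 5 held 7 days replicates 3 to 5 with knockdown replicate 1, and lane 6 held knockdown replicates 2 to 5. Untreated cells thus met irradiated cells in lane 3 alone, through the library that stood apart, and met the knockdown in no lane. The rule gave 49 genes without untreated replicate 5, of which 44 were among the 45, and 46 without replicates 4 and 5, which included all 45.

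The 45 genes stood at 2.26 (HSPA1L) to 147 CPM (CCNF) in untreated cells, with a median of 28.1 CPM. Their difference x at 1.5 h minus x untreated ran from -1.27 to -0.61 with a median of -0.73, while the median over all genes of at least 2 CPM was -0.0075. Just inside the limit of the rule were DDIT4 (-0.62), ZFP2 (-0.62) and SOCS3 (-0.61), and just outside it IRS1 (-0.60, at -0.596 before rounding), DBP (-0.59) and HYLS1 (-0.59). For 37 of the 45 genes every 1.5 h library lay below every untreated library. This holds for 3.79% of the 14992 genes tested, and 1.57% were called lower at 1.5 h; since this contrast chose the genes, nothing is read from either share. In the 8 other genes the groups overlapped, namely CHAC1, ENSG00000117289, TSC22D3, TIGD5, SHISA3, WNT11, FUT1 and DDIT4. Within lane 3 the median of the 3 libraries at 1.5 h lay below the untreated library for 41 of the 45 genes, with a median difference of -0.66, and by 0.6 or more for 25. The 4 genes with this median above it were CHAC1 (0.74), TSC22D3 (0.55), FUT1 (0.55) and DDIT4 (1.04). The libraries of lane 3 were among those that chose the genes, and no share over all genes is given. Nothing is therefore read from these counts or from the median within the lane. By the measure of the rule, 1171 genes would pass in lane 3 alone, where untreated replicate 5 was the only untreated library.

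**Figure D1:**
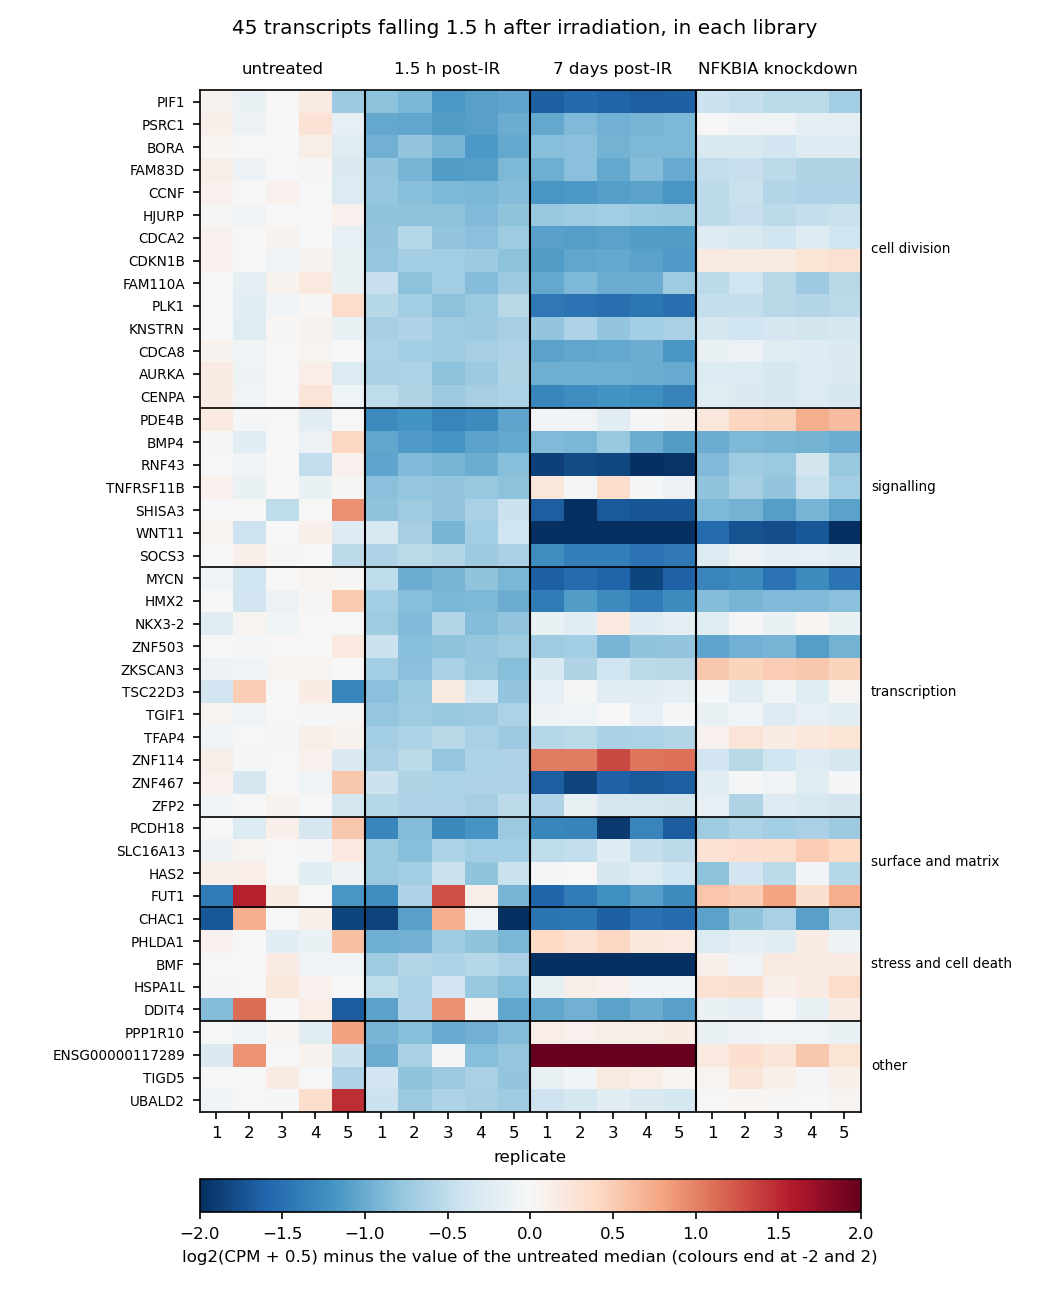
Level of the 45 genes (rows, grouped by role) in each of the 20 libraries (columns, replicates 1 to 5 of each group), as log2 of CPM + 0.5 minus the value of the untreated median. The division genes are blue in all 10 irradiated libraries, and CHAC1, FUT1 and DDIT4 vary as much among untreated libraries as between groups.

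By 7 days the 45 genes had gone different ways. Compared by medians, 24 stood below their 1.5 h level, 16 between that level and the untreated one, and 5 (PPP1R10, PHLDA1, TIGD5, ZNF114 and ENSG00000117289) at or above the untreated level. The median of x at 7 days minus x untreated was -0.93 over the 45 genes, from -2.36 for BMF to 3.12 for ENSG00000117289, and -0.29 for the knockdown. Over all genes of at least 2 CPM these medians were 0.025 and 0.045. Both contrasts use the untreated libraries that chose the genes, so the values are set side by side and not related to each other.

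In the fit over all 14992 genes tested, which included all 45, a gene counted as called when its log2 fold change was beyond 0.5 either way and its p, adjusted by Benjamini-Hochberg in edgeR's quasi-likelihood test, was under 0.05. Against untreated cells, 32 of the 45 were called lower at 7 days and 2 higher (ZNF114 and ENSG00000117289), where 14.4% and 16.7% of the genes tested were called lower and higher. The rule favours genes that stand high in these untreated libraries, so selection alone tilts the 45 toward lower calls, and the shares over all genes are no fair measure for them. The median log2 fold change was -1.02, beside 0.012 over all genes tested. Every 7 days library lay below every untreated library for 29 of the 45, against 17.4% of the genes tested. Without untreated replicates 4 and 5 the fit called 31 lower and 2 higher. No lane held libraries of both groups. With lane as a factor in the fit, which rests on untreated replicate 5, the calls were 30 lower and 4 higher.

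Against the 1.5 h libraries, which also served the selection, 14 genes were called lower at 7 days, 10 higher and 21 not called. Of all genes tested, 12.6% were called lower and 16.8% higher. The rule favours genes that stand low in these 1.5 h libraries, so selection alone tilts the selected genes toward higher calls. The shares over all genes are therefore no fair measure for them, and nothing is read from the distance. The median log2 fold change was -0.05, beside 0.012 over all genes tested. In lane 4, with 2 libraries of each group, 12 were called lower and 11 higher, and with lane as a factor over all libraries 10 lower and 11 higher. Set beside the calls against untreated cells, 14 genes were called lower at 7 days than in both groups, 18 lower than untreated and not called against 1.5 h, and 8 higher than at 1.5 h and not called against untreated. The 2 called higher than untreated were also called higher than at 1.5 h, and 3 genes were called against neither. These 3, chosen after their values were seen, were TSC22D3, HAS2 and ZFP2. With lane as a factor TSC22D3 was called higher than untreated (1.36) and HAS2 higher than at 1.5 h (0.62).

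**Figure D2:**
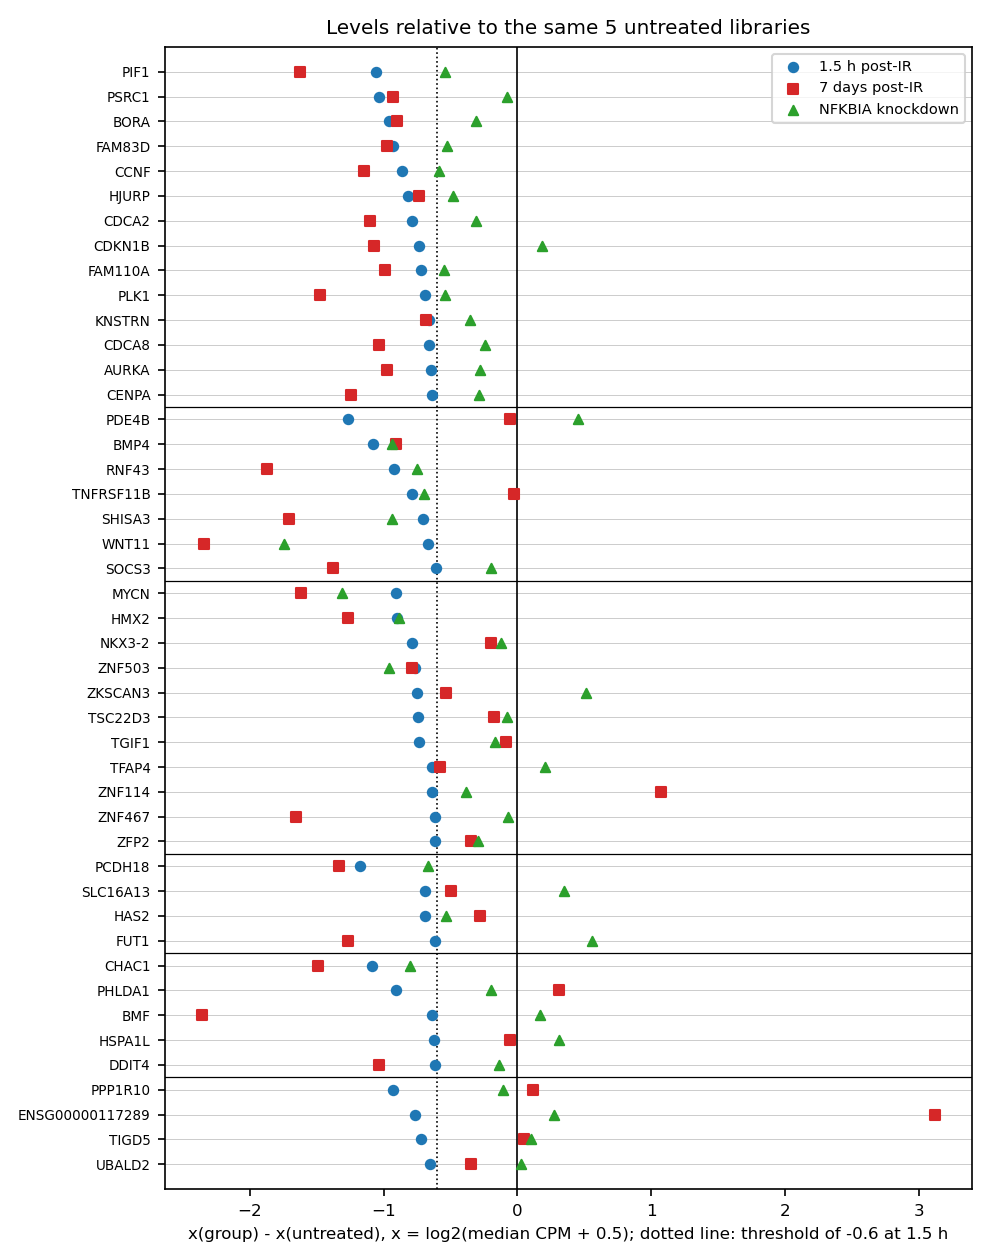
Difference of x (log2 of median CPM + 0.5) from untreated cells at 1.5 h (circles), at 7 days (squares) and in the knockdown (triangles) for each of the 45 genes, by role; the dotted line marks the limit of -0.6 that the circles had to pass. The squares range from -2.36 to 3.12, and all 3 differences of a gene use the same 5 untreated libraries.

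The contrast of 7 days post-IR with the NFKBIA knockdown compares 2 groups that did not select the genes, but its standard errors and p values come from the fit to all 4 groups. These 2 groups differ both in irradiation and in the knockdown, and the parts of each in a call cannot be told apart. Whether they also differ in vector or doxycycline is not given. Of the 45 genes 24 were called lower at 7 days and 3 higher, while 9.89% and 15.8% of the genes tested were called lower and higher. A fit to the 10 libraries of these 2 groups alone called 25 lower and 3 higher, the added gene being CHAC1. The median log2 fold change was -0.56, beside 0.00015 over all genes tested. Every 7 days library lay below every knockdown library for 30 of the 45 genes and above for 6, against 31.6% and 29.4% of the genes tested. For each gene whose adjusted p is given in what follows, all 5 libraries at 7 days lay on the same side of all 5 of the knockdown. By role, the genes called lower were 10 of 14 in cell division, 5 of 7 in signalling, 4 of 11 in transcription, 3 of 4 at the surface and in matrix, 2 of 5 in stress and cell death, and 0 of the 4 others. The 3 called higher were TNFRSF11B, ZNF114 and ENSG00000117289. In lane 5, with 3 libraries at 7 days and 1 of the knockdown, the median difference was -0.51. With lane as a factor 21 were called lower and 5 higher.

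**Figure D3:**
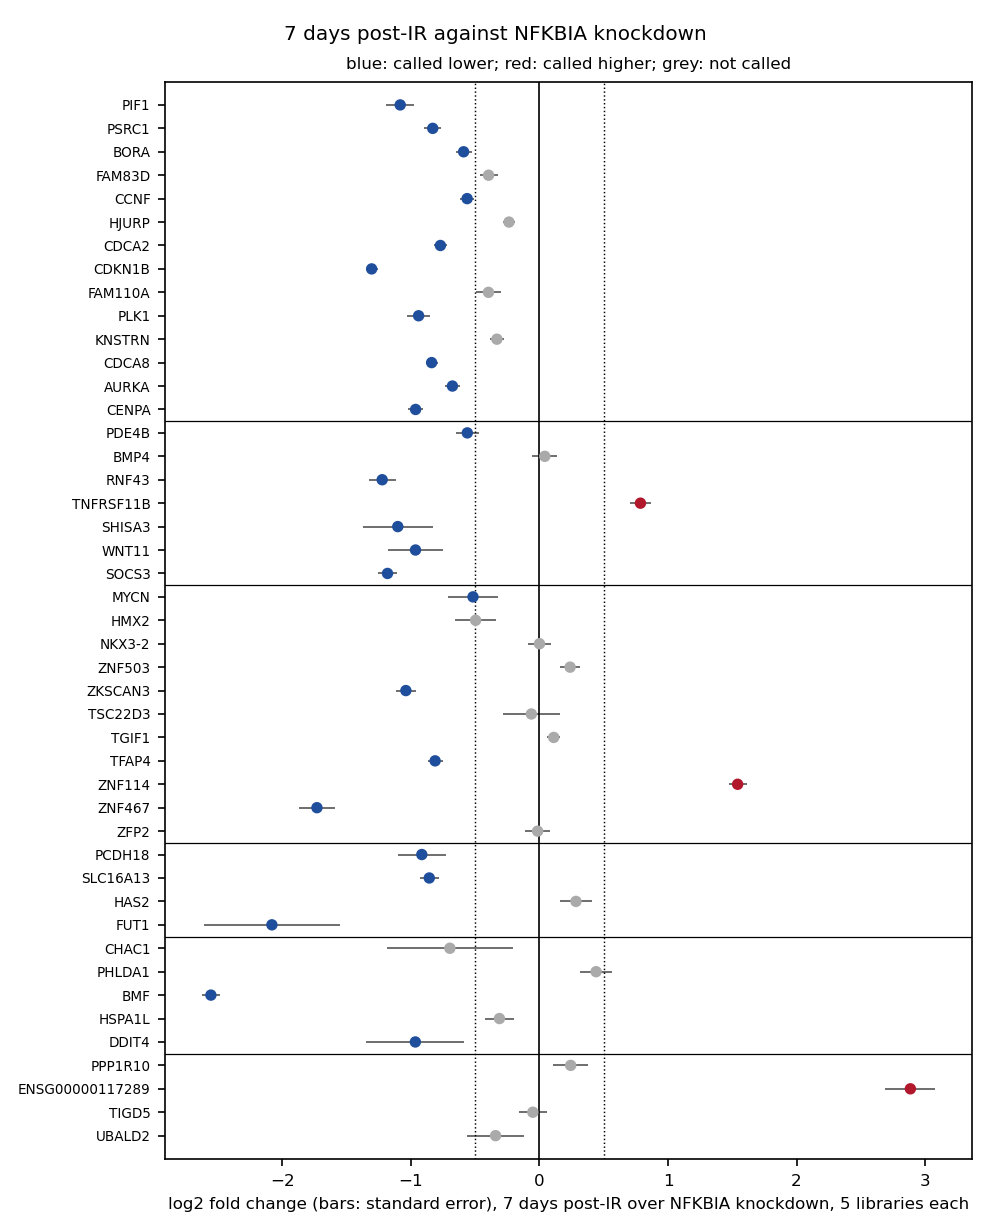
Fitted log2 fold change of 7 days post-IR over NFKBIA knockdown (points, 5 libraries per group) with its standard error (bars) for the 45 genes by role; dotted lines mark -0.5 and 0.5. Blue points were called lower (24 genes), red higher (3) and grey not called (18).

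Between the knockdown and untreated cells, neither irradiated, 16 of the 45 genes were called lower and 0 higher, with 7.53% and 5.18% of the genes tested called lower and higher. The same untreated libraries chose the genes, which tilts the calls toward lower, so nothing is read from the distance to these shares. The median log2 fold change was -0.36, beside -0.0080 over all genes tested. Behind the 0, 5 genes were higher with an unadjusted p under 0.05 in the edgeR fit, with changes up to 0.50, of which 0 passed a log2 fold change of 0.5, and DESeq2 also called 0. With library size alone in place of TMM scaling, 12 were called lower and 2 higher, and 1 gene was called higher without untreated replicate 1 or 3 or without knockdown replicate 1, 2 or 5. All knockdown libraries lay below all untreated ones for 20 genes, against 8.93% of the genes tested. They lay above all untreated ones for 4 genes. No share over all genes is given for this, so nothing is read from the count. No lane held libraries of both groups.

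The 14 division genes were called lower than in untreated cells at 7 days without exception, with log2 fold changes of -1.58 to -0.70 and a median of -1.07, where 14.4% of all genes tested were called lower. This contrast shares its untreated libraries with the rule that chose the genes. In these bulk samples fewer cells of a type and less RNA per cell cannot be told apart. They include the kinase PLK1, which drives entry into mitosis, the kinase AURKA, its activating partner BORA, and cyclin F (CCNF), a substrate receptor of the SCF ubiquitin ligase. PLK1 was measured at 142, 123, 137, 143 and 183 CPM in untreated cells and 95.003, 87.7, 80.2, 84.9 and 95.8 CPM at 1.5 h. At 7 days it stood at 52.2, 50.6, 49.6, 51.5 and 49.4 CPM and in the knockdown at 102, 101, 96.5, 93.7 and 97.1 CPM. Untreated libraries were highest and 7 days libraries lowest without overlap, while those at 1.5 h and of the knockdown met between them. PLK1 was called lower at 7 days than in the knockdown by -0.94 on the log2 scale (standard error 0.087; edgeR quasi-likelihood test, Benjamini-Hochberg adjusted p = 8.00e-09), and also lower than at 1.5 h (-0.83).

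A centromere protein and its chaperone are set side by side, and a difference between their courses was not tested. CENPA, the histone H3 variant of centromeres, was at 85.2, 72.1, 75.9, 91.3 and 71.6 CPM in untreated cells, 53.1, 49.96, 45.7, 47.8 and 48.7 CPM at 1.5 h, 30.5, 31.7, 33.0, 32.0 and 29.8 CPM at 7 days and 64.2, 62.1, 60.04, 62.7 and 59.9 CPM in the knockdown. Its 4 groups were fully separate, with 7 days lowest. The log2 fold change against the knockdown was -0.96 (standard error 0.061; edgeR quasi-likelihood test, Benjamini-Hochberg adjusted p = 2.13e-11). HJURP, the chaperone that loads CENPA onto centromeres, was at 148, 138, 144, 145 and 155 CPM in untreated cells, 82.6, 81.8, 82.04, 78.3 and 82.9 CPM at 1.5 h, 85.3, 88.1, 89.0, 86.8 and 85.3 CPM at 7 days and 101, 105, 101, 104 and 106 CPM in the knockdown. Here the 7 days libraries lay above those at 1.5 h, though the fitted difference of 0.071 was not called. The difference of -0.24 from the knockdown was not called either. CDCA8 (borealin), a part of the chromosomal passenger complex, differed from the knockdown by -0.84, CDCA2, which targets a phosphatase to chromatin, by -0.77 and AURKA by -0.68, and all 3 were called lower. KNSTRN, a kinetochore protein, had -0.33 and was not called. CENPA, CDCA8 and KNSTRN are named after their values were seen.

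PIF1, a DNA helicase, had the largest difference of medians at 1.5 h among the division genes (-1.06), but not in the fit (-0.94, with -1.12 for PSRC1). It was measured at 64.6, 56.2, 61.7, 69.4 and 37.0 CPM in untreated cells, 34.6, 32.7, 27.5, 28.7 and 29.4 CPM at 1.5 h, 19.6, 20.7, 20.1, 19.4 and 19.6 CPM at 7 days and 45.7, 44.5, 42.2, 42.3 and 37.8 CPM in the knockdown. Untreated replicate 5 was the lowest of its group, near the 1.5 h libraries, and within lane 3 the difference was -0.18. PIF1 was called lower at 7 days than in the knockdown, by -1.08 (standard error 0.11; edgeR quasi-likelihood test, Benjamini-Hochberg adjusted p = 2.79e-08), and lower than at 1.5 h, by -0.64. PSRC1 and FAM83D, both proteins of the mitotic spindle, stood at 7 days where they had stood at 1.5 h. PSRC1 read 58.4, 49.7, 54.2, 66.2 and 48.2 CPM in untreated cells, 26.6, 26.2, 24.8, 25.2 and 27.0 CPM at 1.5 h, 26.4, 29.3, 27.6, 28.3 and 28.7 CPM at 7 days and 53.8, 51.5, 51.4, 47.4 and 47.6 CPM in the knockdown. Knockdown and untreated libraries of PSRC1 overlapped, and the irradiated libraries lay far below both. FAM83D differed at 7 days by 0.00066 from 1.5 h and by -0.40 from the knockdown, neither of which was called. BORA (-0.59) and CCNF (-0.56) were called lower than the knockdown. FAM110A, found at spindle poles and named after its values were seen, was not (-0.40).

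CDKN1B encodes p27, an inhibitor of cyclin-dependent kinases, and so acts against division where the other genes of this role serve it. Its levels were 57.5, 54.3, 51.8, 56.8 and 48.7 CPM in untreated cells, 31.4, 33.4, 33.2, 32.5 and 30.6 CPM at 1.5 h, 24.8, 26.0, 26.4, 25.6 and 24.4 CPM at 7 days and 61.8, 60.7, 61.9, 65.6 and 67.3 CPM in the knockdown. The knockdown libraries lay above the untreated ones and the 7 days libraries below all others. Among the 14 division genes it had the largest change against the knockdown, -1.31 (standard error 0.046; edgeR quasi-likelihood test, Benjamini-Hochberg adjusted p = 2.16e-15).

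On a list of 70 genes of mitosis, all of at least 2 CPM, 9 were among the 45 (12.9% of the list and 20.0% of the 45). Of all genes of at least 2 CPM, 0.354% were selected. The list was chosen with earlier results of these data known, and these shares were not tested. On the list 64 of 70 had a lower median at 1.5 h than untreated, the 9 by the rule itself. Nothing is therefore read from this count beside the 52.0% of all genes of at least 2 CPM that were lower. The summed level of the list was 12005.5 CPM in untreated cells, 10012 at 1.5 h, 5988 at 7 days and 9729 in the knockdown (medians over 5 libraries). Against the knockdown 58 of 70 were called lower at 7 days and 0 higher (9.89% and 15.8% of all genes tested), and the list had a median change of -0.69 on the log2 scale. Of its 9 genes among the 45, 7 were called lower, and of its 61 other genes 51, with a median of -0.67 over those 61. The difference between these shares was not tested. Against untreated cells 67 of the 70 were called lower at 7 days (14.4% of all genes tested) and 15 in the knockdown (7.53%), and against 1.5 h 57 were lower at 7 days (12.6%), with 0 called higher in each.

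**Figure D4:**
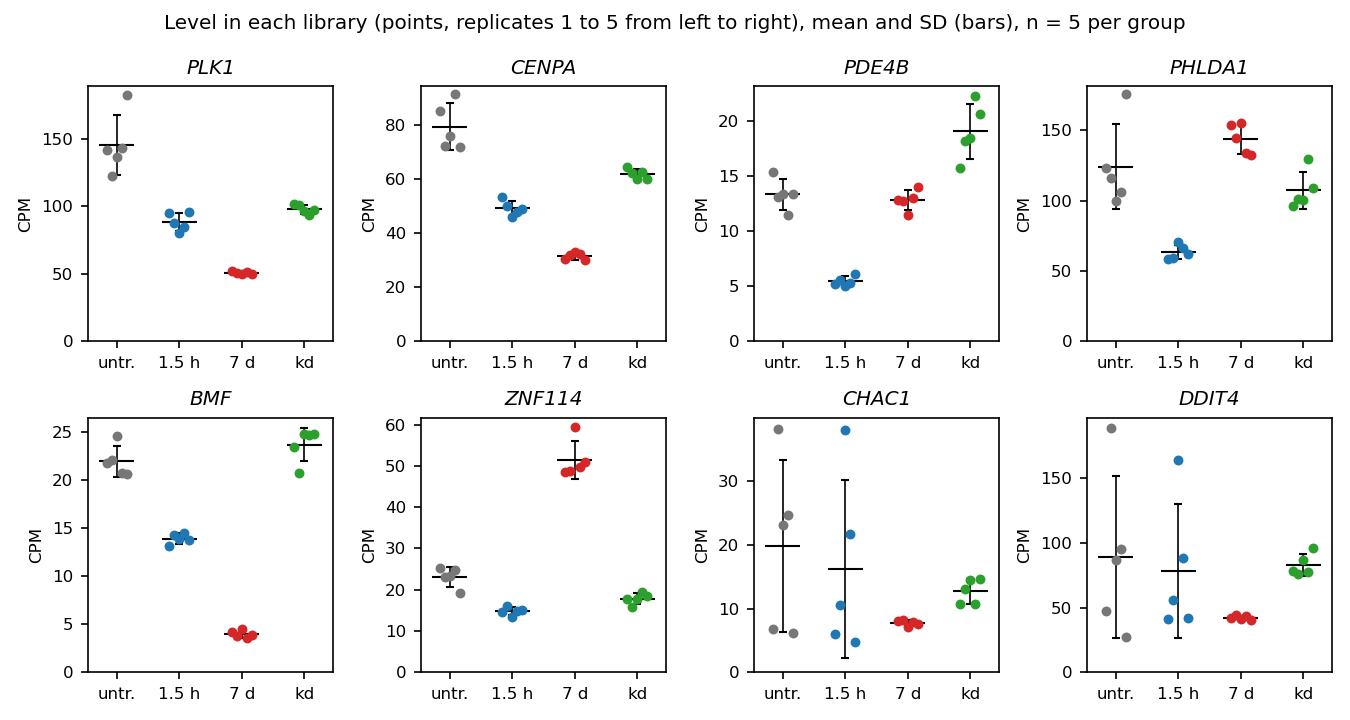
CPM in every library for 8 of the 45 genes, with the mean (line) and SD (bars) of the 5 libraries per group; untr., untreated; kd, NFKBIA knockdown. PLK1 and CENPA were lowest at 7 days, PDE4B and PHLDA1 overlapped the untreated range again at 7 days, BMF stood at 3.602 to 4.52 CPM at 7 days, ZNF114 lay above untreated, and CHAC1 and DDIT4 varied within the untreated and the 1.5 h groups.

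Among the 7 signalling genes, PDE4B, a phosphodiesterase that degrades cAMP, had the largest difference at 1.5 h of all 45 genes (-1.27). It was measured at 15.3, 13.1, 13.4, 11.4 and 13.3 CPM in untreated cells, 5.21, 5.54, 5.02, 5.24 and 6.12 CPM at 1.5 h, 12.8, 12.7, 11.4, 12.99 and 13.98 CPM at 7 days and 15.7, 18.1, 18.4, 22.3 and 20.6 CPM in the knockdown. The 1.5 h libraries lay below all others, those at 7 days overlapped the untreated range, and the knockdown libraries lay above both. PDE4B was called higher at 7 days than at 1.5 h (1.21) and lower than in the knockdown, by -0.56 (standard error 0.088; edgeR quasi-likelihood test, Benjamini-Hochberg adjusted p = 1.38e-05). The latter change was -0.30 with lane as a factor, which is not called. Of the 16 genes on a list of cAMP signalling that reached 2 CPM, it alone was selected, where 0.354% of all genes at that level were.

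A further 3 genes of this role belong to Wnt signalling. RNF43, a ubiquitin ligase that removes Wnt receptors from the surface, was at 42.6, 40.7, 42.9, 30.1 and 45.3 CPM in untreated cells, 20.3, 22.9, 22.2, 21.1 and 23.5 CPM at 1.5 h, 11.3, 11.98, 11.7, 10.3 and 10.5 CPM at 7 days and 22.8, 25.7, 25.2, 33.0 and 24.98 CPM in the knockdown. Irradiated libraries lay below all untreated ones, those at 7 days lowest. RNF43 was called lower at 7 days than in the knockdown, by -1.22 (standard error 0.11; edgeR quasi-likelihood test, Benjamini-Hochberg adjusted p = 2.66e-09). WNT11, a ligand of the family, was at 5.83, 4.09, 5.62, 6.08 and 4.61 CPM in untreated cells, 4.48, 3.36, 2.72, 3.26 and 4.15 CPM at 1.5 h, 0.527, 0.564, 0.729, 0.708 and 0.762 CPM at 7 days and 1.61, 1.32, 1.28, 1.39 and 0.831 CPM in the knockdown. The untreated and 1.5 h libraries overlapped, while the 7 days and the knockdown libraries lay below both. Its log2 fold change of -3.04 at 7 days against untreated cells was the lowest of the 45 genes, and that of the knockdown was -2.07. SHISA3, which holds back receptors of Wnt and FGF on their way to the surface, was at 3.63, 3.64, 2.43, 3.68 and 7.32 CPM in untreated cells, 1.87, 2.04, 1.91, 2.15 and 2.58 CPM at 1.5 h, 0.819, 0.531, 0.787, 0.770 and 0.762 CPM at 7 days and 1.73, 1.66, 1.43, 1.69 and 1.48 CPM in the knockdown. Untreated replicate 5 stood well above the others. SHISA3 was called lower at 7 days than in the knockdown (-1.10), as was WNT11 (-0.96).

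SOCS3, an inhibitor of cytokine receptors that signal through JAK kinases, was at 73.7, 79.7, 75.7, 74.1 and 51.2 CPM in untreated cells, 48.3, 50.7, 49.5, 44.6 and 47.1 CPM at 1.5 h, 30.9, 28.4, 28.2, 26.3 and 27.3 CPM at 7 days and 61.1, 67.9, 64.5, 65.9 and 63.8 CPM in the knockdown. The untreated replicate 5 was the lowest of its group, close to the 1.5 h libraries. At 7 days SOCS3 was called lower than in the knockdown, by -1.18 (standard error 0.077; edgeR quasi-likelihood test, Benjamini-Hochberg adjusted p = 3.13e-11). BMP4, a secreted ligand of the TGF-β family, was at 108, 91.5, 107, 97.9 and 143 CPM in untreated cells, 51.9, 48.5, 47.0, 50.2 and 52.3 CPM at 1.5 h, 57.4, 56.6, 63.0, 53.4 and 49.1 CPM at 7 days and 53.2, 56.8, 55.6, 55.4 and 53.2 CPM in the knockdown. All 15 libraries outside the untreated group lay below it and close to each other, and the 7 days and knockdown levels differed by 0.042, which was not called. TNFRSF11B, osteoprotegerin, is a secreted decoy receptor for RANKL. It was at 96.4, 83.1, 91.0, 82.96 and 92.7 CPM in untreated cells, 50.98, 53.1, 52.5, 53.4 and 51.6 CPM at 1.5 h, 106, 89.3, 116, 89.4 and 84.3 CPM at 7 days and 51.9, 57.2, 52.3, 66.9 and 56.0 CPM in the knockdown. The 7 days libraries overlapped the untreated range and reached above it, and those at 1.5 h and of the knockdown lay below. TNFRSF11B was the one signalling gene called higher at 7 days than in the knockdown, by 0.79 (standard error 0.083; edgeR quasi-likelihood test, Benjamini-Hochberg adjusted p = 6.33e-08).

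The 11 genes of transcription held 5 zinc finger genes, of 504 such genes that reached 2 CPM (0.992%, beside 0.354% of all genes at that level). These 5 ended apart. ZNF114 was at 25.3, 23.2, 23.4, 24.8 and 19.2 CPM in untreated cells, 14.7, 15.98, 13.4, 14.9 and 15.01 CPM at 1.5 h, 48.5, 48.8, 59.4, 49.8 and 50.9 CPM at 7 days and 17.8, 15.8, 17.7, 19.5 and 18.5 CPM in the knockdown. At 7 days it lay above every library of the other groups, called higher than the knockdown by 1.54 (standard error 0.071; edgeR quasi-likelihood test, Benjamini-Hochberg adjusted p = 1.32e-13). ZNF467 was at 9.93, 7.26, 9.31, 8.79 and 13.7 CPM in untreated cells, 6.78, 5.998, 5.81, 5.88 and 5.89 CPM at 1.5 h, 2.63, 2.22, 2.71, 2.56 and 2.61 CPM at 7 days and 8.01, 9.01, 8.82, 7.83 and 9.07 CPM in the knockdown. It moved the other way, called lower than the knockdown by -1.73 (standard error 0.14; edgeR quasi-likelihood test, Benjamini-Hochberg adjusted p = 8.14e-10). ZKSCAN3, a repressor of autophagy genes, was at 5.54, 5.69, 6.31, 6.30 and 6.08 CPM in untreated cells, 3.62, 3.19, 3.71, 3.41 and 3.14 CPM at 1.5 h, 4.798, 3.82, 4.52, 4.03 and 3.96 CPM at 7 days and 9.06, 8.43, 8.88, 9.10 and 8.46 CPM in the knockdown. Its 4 groups were separate, with the knockdown highest, and it was called lower at 7 days than there (-1.04). ZNF503, a repressor in development, differed at 7 days from the knockdown by 0.24 and ZFP2 by -0.014, neither of which was called.

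MYCN, an oncogenic relative of MYC, was near the limit of 2 CPM, at 2.46, 1.85, 2.60, 2.71 and 2.66 CPM in untreated cells, 1.67, 1.06, 1.12, 1.28 and 1.15 CPM at 1.5 h, 0.497, 0.564, 0.525, 0.369 and 0.508 CPM at 7 days and 0.747, 0.7996, 0.610, 0.787 and 0.615 CPM in the knockdown. All libraries of the other groups lay below the untreated ones. Its change against the knockdown, -0.52 with a standard error of 0.20, was called but was -0.44 without 7 days replicate 4 and -0.49 without knockdown replicate 2, and the call was also lost with DESeq2 (-0.52) and with lane as a factor (-0.67). The homeobox genes were HMX2, NKX3-2, which acts in cartilage, and TGIF1, a repressor of TGF-β targets. HMX2 stood at 3.56 to 7.10 CPM in untreated cells and 1.49 to 1.92 CPM at 7 days, and its change of -0.50 against the knockdown was just short of the threshold but was called under many alternatives, with lane as a factor (-0.54) and without 7 days replicate 2 (-0.57) among them. NKX3-2 was at 13.4, 16.5, 15.1, 15.9 and 16.02 CPM in untreated cells, 9.51, 8.41, 10.4, 8.50 and 9.03 CPM at 1.5 h, 14.54, 13.7, 18.2, 13.2 and 13.8 CPM at 7 days and 13.4, 15.5, 14.6, 16.3 and 14.4 CPM in the knockdown. All groups but that at 1.5 h overlapped. TGIF1 was at 41.04, 37.5, 39.7, 38.6 and 40.3 CPM in untreated cells, 22.9, 24.0, 23.4, 23.7 and 25.4 CPM at 1.5 h, 36.8, 37.4, 39.6, 35.5 and 39.0 CPM at 7 days and 35.9, 37.5, 33.0, 35.3 and 34.1 CPM in the knockdown. Both were called higher at 7 days than at 1.5 h, by 0.66 and 0.64, and were not called against untreated cells (-0.11 and -0.11).

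TFAP4, a helix-loop-helix factor, was called lower at 7 days than in the knockdown (-0.81) and did not differ by a call from 1.5 h (0.031). TSC22D3, a leucine zipper protein induced by glucocorticoids and named after its values were seen, was at 9.67, 18.1, 12.8, 14.3 and 4.88 CPM in untreated cells and 6.95, 7.40, 14.4, 9.52 and 7.13 CPM at 1.5 h. The 1.5 h libraries lay within the untreated range, with untreated replicate 2 and 1.5 h replicate 3 highest.

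In the role of stress and cell death, BMF, a BH3-only protein that promotes apoptosis, had the largest change of all 45 genes against the knockdown among those called lower. It was at 21.8, 22.1, 24.6, 20.7 and 20.6 CPM in untreated cells, 13.1, 14.3, 13.8, 14.53 and 13.8 CPM at 1.5 h, 4.15, 3.78, 4.52, 3.602 and 3.85 CPM at 7 days and 23.4, 20.8, 24.8, 24.7 and 24.8 CPM in the knockdown. The untreated and knockdown libraries overlapped, those at 1.5 h lay below both, and those at 7 days below all others. BMF was called lower than the knockdown by -2.56 (standard error 0.071; edgeR quasi-likelihood test, Benjamini-Hochberg adjusted p = 6.59e-17) and lower than at 1.5 h by -1.82. PHLDA1, a pleckstrin homology-like protein that is counted among feedback genes of ERK signalling, was at 123, 116, 99.5, 106 and 176 CPM in untreated cells, 58.5, 59.3, 70.5, 66.4 and 61.6 CPM at 1.5 h, 154, 144, 156, 134 and 133 CPM at 7 days and 96.4, 101, 100.1, 129 and 109 CPM in the knockdown. The 7 days libraries lay above all but the highest untreated library, replicate 5. PHLDA1 was called higher than at 1.5 h (1.17) and not called against the knockdown (0.44), where lane as a factor gave a call (0.55). HSPA1L, a chaperone of the HSP70 family, was at 2.20 to 2.70 CPM in untreated cells, 1.04 to 1.63 CPM at 1.5 h and 1.99 to 2.49 CPM at 7 days. Its close relatives HSPA1A and HSPA1B stood at 33.5 to 61.01 and 22.4 to 30.3 CPM in untreated cells, and reads could be shared among the 3 genes, so its values are uncertain.

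DDIT4, an inhibitor of mTORC1 induced by stress, and CHAC1, which degrades glutathione and is induced by the unfolded protein response, passed the rule without a separation of groups. DDIT4 was at 47.2, 188, 86.5, 94.8 and 27.0 CPM in untreated cells, 41.1, 56.2, 164, 88.5 and 41.9 CPM at 1.5 h, 41.8, 44.0, 40.9, 43.3 and 40.4 CPM at 7 days and 78.4, 75.9, 87.0, 77.7 and 95.6 CPM in the knockdown. CHAC1 was at 6.83, 38.2, 23.1, 24.7 and 6.12 CPM in untreated cells, 6.04, 10.6, 38.0, 21.7 and 4.74 CPM at 1.5 h, 8.05, 8.16, 7.11, 7.88 and 7.62 CPM at 7 days and 10.8, 13.01, 14.49, 10.7 and 14.6 CPM in the knockdown. In both genes untreated replicate 2 and 1.5 h replicate 3 were the highest of their groups and replicates 1 and 5 of both groups were low, while the 7 days and knockdown libraries varied little. The same libraries were highest for FUT1, TSC22D3 and ENSG00000117289. The fit, which uses means, gave -0.20 for DDIT4 and -0.32 for CHAC1 at 1.5 h. DDIT4 was called lower at 7 days than in the knockdown (-0.97, standard error 0.38), but not when any 1 of the 7 days libraries was left out, with values of -0.998 to -0.95, nor without knockdown replicate 3 (-0.97) or 5 (-0.93) or with lane as a factor (-0.91). The calls of DDIT4, CHAC1 and FUT1 as lower at 7 days than untreated were lost without untreated replicate 2 (-0.65, -1.03 and -1.07), and their direction turned with lane as a factor (0.97, 0.75 and 0.053).

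The 4 genes of surface and matrix were PCDH18, a protocadherin, HAS2, which makes hyaluronan, SLC16A13, of the monocarboxylate transporters, and FUT1, the fucosyltransferase of the H antigen. PCDH18 was at 7.88, 6.40, 8.52, 6.17 and 11.7 CPM in untreated cells, 2.91, 4.10, 2.95, 3.20 and 4.55 CPM at 1.5 h, 2.90, 2.82, 1.72, 2.86 and 2.14 CPM at 7 days and 4.63, 4.89, 4.76, 4.87 and 4.55 CPM in the knockdown. At 7 days it was called lower than at 1.5 h (-0.53), a call lost with lane as a factor (-0.46) and without several single libraries, and lower than the knockdown, by -0.91 (standard error 0.19; edgeR quasi-likelihood test, Benjamini-Hochberg adjusted p = 0.000289). SLC16A13, named after its values were seen, was at 8.52 to 10.6 CPM in untreated cells, 4.88 to 5.73 CPM at 1.5 h, 6.24 to 7.58 CPM at 7 days and 11.3 to 13.2 CPM in the knockdown, called lower at 7 days than there (-0.86). HAS2, named likewise, was at 10.1 to 13.002 CPM in untreated cells, 6.55 to 8.65 CPM at 1.5 h, 8.86 to 11.9 CPM at 7 days and 6.51 to 11.4 CPM in the knockdown, and was not called against it (0.28) except with lane as a factor (0.52). FUT1 was at 2.31, 21.3, 7.75, 6.92 and 2.80 CPM in untreated cells, 2.63, 4.33, 17.3, 7.51 and 3.40 CPM at 1.5 h, 1.93, 2.32, 2.68, 2.96 and 2.58 CPM at 7 days and 10.4, 9.93, 12.3, 8.77 and 11.8 CPM in the knockdown. The 7 days libraries lay below all those of the knockdown, with a called change of -2.08 and a standard error of 0.53 that is the widest of the 45 genes in this contrast. With lane as a factor the change was -1.92 and was not called.

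Of the 4 remaining genes, PPP1R10 encodes PNUTS, a nuclear partner of protein phosphatase 1. It was at 115, 109.9, 119, 98.1 and 201 CPM in untreated cells, 60.3, 63.9, 57.1, 59.1 and 62.8 CPM at 1.5 h, 127, 122, 125, 125 and 127 CPM at 7 days and 104, 107, 109, 109 and 105 CPM in the knockdown. At 7 days it was called higher than at 1.5 h (1.02) and not called against untreated cells (-0.10), but with lane as a factor it was called lower than untreated (-0.82). TIGD5, derived from a pogo transposase, was called higher than at 1.5 h as well (0.74). UBALD2, with a ubiquitin-associated domain, was at 46.5, 48.6, 47.7, 62.0 and 137 CPM in untreated cells and 36.3, 38.0, 41.8, 39.5 and 38.0 CPM at 7 days. Its call as lower at 7 days than untreated (-0.87) was lost without untreated replicate 5 (-0.45). ENSG00000117289 carries no symbol in the deposited table and is described, after its values were seen, by its identifier alone. It was at 13.7, 31.7, 16.8, 17.6 and 12.3 CPM in untreated cells, 8.22, 10.5, 16.3, 9.05 and 9.65 CPM at 1.5 h, 150.1, 163, 159, 149.7 and 149 CPM at 7 days and 19.2, 21.4, 19.9, 24.5 and 20.3 CPM in the knockdown. The untreated and 1.5 h libraries overlapped, whereas those at 7 days lay far above all others. It had the largest rise of the 45 genes against the knockdown, 2.89 (standard error 0.19; edgeR quasi-likelihood test, Benjamini-Hochberg adjusted p = 5.33e-11).

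By class, 44 of the 45 genes were found in GENCODE 29 by their identifier, and all 44 are protein-coding, as are 99.5% of the matched genes of at least 2 CPM. Their width in the deposited table, which equals the summed exon length in GENCODE 29 for 29 of the 45 genes, had a median of 2928 bases, against 4927 bases over the genes of at least 2 CPM. The quartiles were 2602 and 4760 bases for the 45 genes and 3195 and 7218 bases at large, so that the selected genes were narrower at each quartile. PDE4B (8641 bases), PHLDA1 (8069) and TFAP4 (7867) were the widest, and HMX2 (1628), UBALD2 (1792) and SHISA3 (1971) the narrowest. The span with introns differed more, with medians of 14733.5 and 34986 bases, and 40.9% of the 44 genes spanned less than 10 kb against 17.5%. The median number of exons was 4.5 against 9. By role the median width was 2891.5 bases for cell division, 2827 for signalling, 3087 for transcription, 4266.5 for surface and matrix and 2624 for stress and cell death.

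**Figure D5:**
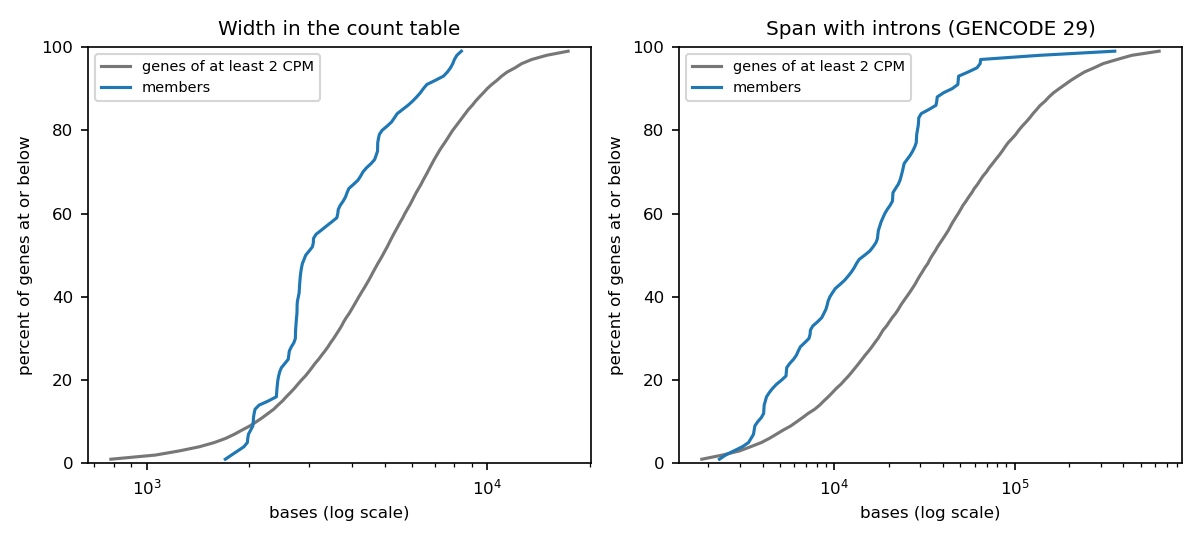
Share of genes at or below a given width of the count table (left) or span with introns (right), in bases on a log scale, for the selected genes (blue) and all genes of at least 2 CPM in untreated cells (grey). The curve of the selected genes lies to the left of the other over most of its course, with medians of 2928 against 4927 bases for width.

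In the transcript taken for each gene, the median length was 2472 bases against 3149. Its coding part had a median of 1219.5 bases against 1446 and its 3′ untranslated region 838.5 against 1005, while the 5′ untranslated region was longer than at large, 297 against 183 bases. The pentamer ATTTA, which is part of AU-rich elements of unstable transcripts, was found in the 3′ untranslated region of 32 of the 44 genes (72.7%) and of 68.3% of genes of at least 2 CPM. Per kb it occurred 1.72 times at the median in the 43 genes with a value and 1.68 times at large, and among genes of at least 5 CPM 1.35 times in 39 selected genes and 1.69 times at large, which was not tested. GC content of the transcripts had a median of 53.4% against 49.2%. Exons of 16 of the 44 genes overlap a gene on the opposite strand and those of 3 a gene on the same strand (RNF43, ZNF503 and CENPA). The paper describes the libraries as stranded, but whether the counting used strand is not given in the sources used here, so whether reads of such neighbours are included is not known. The genes with an opposite neighbour were BORA, RNF43, MYCN, PHLDA1, CCNF, HJURP, ZNF503, TSC22D3, FAM110A, TIGD5, HAS2, PLK1, WNT11, BMF, ZNF114 and DDIT4.

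Of the other gene lists examined, the targets of BMP and TGF-β signalling held 2 of the 45 genes (BMP4 and TGIF1) among 19 genes of at least 2 CPM. Wnt targets held 1 (RNF43) of 10. Feedback genes of ERK signalling held 1 (PHLDA1) of 12, and cAMP signalling 1 (PDE4B) of 16. Lists of immediate early genes (27 genes of at least 2 CPM), p53 targets (26), NF-κB feedback (19), DNA damage signalling and repair (32) and ribosomal proteins (82) held none. Of all genes of at least 2 CPM, 0.354% were selected, so lists of this size can hold few or none of them. Nothing is read from these counts.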

How the data were processed

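RNA of U2-OS cells was sequenced as 20 libraries (5 per group) on a HiSeq2000, from libraries the paper describes as stranded. The read counts per gene are those the authors deposited, made with bcl2fastq, Trimmomatic and STAR 2.4.2a on hg19; the strand setting of counting is not given in the sources used here. Depth was 22535659 to 40390961 reads per library.

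From these counts CPM and x were computed with Python 3.11.15 and pandas 2.3.3, and figures with matplotlib 3.10.9. Tests used R 4.3.3 with edgeR 4.0.16: filterByExpr with a minimum count of 10, TMM scaling, 1 model with 4 group terms, quasi-likelihood F tests and Benjamini-Hochberg adjustment over the 14992 genes tested, with a log2 fold change above 0.5 and an adjusted p under 0.05. DESeq2 1.42.0 was an alternative, beside other scalings and filters, a replicate block, lane as a factor and leaving libraries out. Only the edgeR steps were tried on simulated counts, for a single contrast modelled on the untreated and 1.5 h libraries. The other steps were not simulated. Class and lengths came from GENCODE 29 (44 of 45 genes matched) and promoters from RefSeq.

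Genes named were, by a rule, those with a symbol that had the 20 largest falls, the 5 highest untreated levels, up to 6 of each list, the 8 highest and 8 lowest at 7 days, the 5 called lower and higher against the knockdown with the largest change, the 3 widest and narrowest, and 3 on either side of the limit. The genes and the lists (mitosis, zinc finger, BMP and TGF-β, Wnt, ERK feedback, cAMP, immediate early, p53, NF-κB feedback, DNA damage, ribosomal proteins and cell type markers) were chosen with earlier results of these data known. Roles were assigned after the genes were seen. The 1.5 h contrast with untreated cells was not tested for these genes, since it selected them.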

Additional observations from a re-analysis of the deposited data

Results flagged for a closer look

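One library stood far from the other 4 of its group, by Dixon's ratio of the gap beside it to the range of the group, in 18 of the 180 combinations of a gene and a group. Among 5 values from a normal distribution about 1 in 20 groups passes this limit by chance. In untreated cells these were PPP1R10 (replicate 5 highest, 0.795), ZNF503 (replicate 5 highest, 0.818), ENSG00000117289 (replicate 2 highest, 0.726), TIGD5 (replicate 5 lowest, 0.734), SHISA3 (replicate 5 highest, 0.743), UBALD2 (replicate 5 highest, 0.828), FUT1 (replicate 2 highest, 0.714) and SOCS3 (replicate 5 lowest, 0.790). Untreated replicate 5 is also the library that differed most from its group over all genes. At 1.5 h they were HJURP (replicate 4 lowest, 0.750), ENSG00000117289 (replicate 3 highest, 0.722) and ZNF467 (replicate 1 highest, 0.806). At 7 days they were NKX3-2 (replicate 3 highest, 0.730), TSC22D3 (replicate 2 highest, 0.717), SHISA3 (replicate 2 lowest, 0.803), SLC16A13 (replicate 3 highest, 0.857) and ZNF114 (replicate 3 highest, 0.781). In the knockdown they were RNF43 (replicate 4 highest, 0.713) and AURKA (replicate 3 lowest, 0.781). The cause was not tested.

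A difference between 7 days and 1.5 h (edgeR quasi-likelihood test, Benjamini-Hochberg) flagged 24 of the 45 genes, where 12.6% of all genes tested were called lower and 16.8% higher, given as log2 fold changes with 5 libraries per group. Called lower at 7 days were PCDH18 (-0.53), PIF1 (-0.64), RNF43 (-0.998), MYCN (-1.37), HMX2 (-0.55), SHISA3 (-1.53), PLK1 (-0.83), WNT11 (-2.47), BMF (-1.82), CENPA (-0.66), ZNF467 (-1.27), FUT1 (-1.51), DDIT4 (-0.92) and SOCS3 (-0.79). Called higher were PDE4B (1.21), PPP1R10 (1.02), PHLDA1 (1.17), TNFRSF11B (0.87), NKX3-2 (0.66), ENSG00000117289 (3.82), TGIF1 (0.64), TIGD5 (0.74), ZNF114 (1.78) and HSPA1L (0.75). With lane as a factor 10 were called lower and 11 higher, and without 1.5 h replicate 3, 12 were called lower and 11 higher. The 1.5 h libraries had a part in choosing these genes, which tilts the calls toward higher. Nothing is therefore read from the distance to the shares over all genes tested.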

How the results depend on the processing

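Of 5445 values for single genes under the alternatives, 5235 counted as the same, 76 became weaker, 57 stronger, 73 moved and 4 reversed. A called gene counted as the same when it kept its call. A gene not called did so when it stayed uncalled and shifted by less than its standard error, whatever its sign. The 4 reversed were calls of the main fit and arose with sequencing lane as a factor. Against untreated cells they were CHAC1 (0.75), FUT1 (0.053) and DDIT4 (0.97) at 7 days and PIF1 (0.34) in the knockdown. Some of the values that moved also turned direction, in genes not called in the main fit. CHAC1 in the knockdown against untreated cells went from -0.70 to 1.26 with lane. At 7 days against untreated cells PPP1R10 went from -0.095 to 0.127 and TIGD5 from 0.059 to -0.056 without untreated replicate 5. Lane links untreated to later groups through untreated replicate 5 alone. With lane in the fit 5 genes in place of 3 were called higher at 7 days than in the knockdown, 4 in place of 2 higher than untreated, and 1 in place of 0 higher in the knockdown than untreated. That 0 became 1 with upper-quartile factors and 2 with library size alone. At a log2 fold change of 1, 9 genes were lower at 7 days than in the knockdown, 6 lower in the knockdown than untreated, and 6 lower and 5 higher at 7 days than at 1.5 h. For each of these the cause was not tested.

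With 1 library left out at a time, 22 to 25 genes were called lower and 3 higher at 7 days than in the knockdown, 29 to 32 lower and 2 higher than untreated, and 12 to 15 lower and 10 to 11 higher than at 1.5 h. The knockdown had 14 to 16 lower and 0 to 1 higher than untreated. The rule gave 42 to 53 genes, and the median of x at 7 days minus x untreated lay at -0.98 to -0.86. The rule gave 96 genes with means in place of medians (37 shared), 84 at -0.5, 15 at -0.8 and 1171 in lane 3 alone (25 shared). In lane 5 alone the median of x at 7 days minus x in the knockdown was -0.51 in place of -0.56.

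Some alternatives were chosen after the data were seen. Without untreated replicates 4 and 5 together, 25 genes were lower and 3 higher at 7 days than in the knockdown, and 16 lower and 1 higher in the knockdown than untreated. The median fitted difference at 1.5 h, -0.77, was -0.74 without these 2 libraries, -0.74 with library size alone and -0.81 to -0.74 with 1 library left out. The span with introns was also added then.

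Replicate numbers did not pair the libraries throughout: 7 of 30 pairs of same-numbered libraries had a correlation over 0.1 (median -0.03, from -0.50 to 0.33), and in 5 the own number was best. Replicate 1 matched its own number best among the untreated, 1.5 h and knockdown groups (0.24 to 0.33). With the 7 days group it did not (-0.27 to -0.01). With the number as a replicate block, 24 genes were lower and 3 higher at 7 days than in the knockdown, 32 and 2 against untreated, 13 and 10 against 1.5 h, and 15 and 0 in the knockdown against untreated.

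Lane and group are nearly the same thing in this design, and the part of lane in group differences was not tested beyond the fits above. The untreated group varied most, and 2 of its 5 libraries stood apart. No source says that replicates were separate cultures. Genes near 2 CPM, such as HSPA1L, MYCN and SHISA3, rest on few reads. Counts over whole genes say nothing on transcript variants, synthesis or decay.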
